A study of Homo sapiens with 17 samples.

Results

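Tigger and mariner elements are DNA transposons of the Tc1/mariner superfamily, abbreviated TcMar. The members described here were all repeat loci whose annotated class and family began with DNA/TcMar. That rule uses the annotation alone, although the superfamily was picked for description with earlier results of these data known. They comprised 175272 of the 4748242 repeat loci counted and 103 of the 1261 repeat subfamilies. A total of 35408 of these loci (20.2%) had at least 1 count in any library, 5500 had 10 or more counts, and 424 entered the locus test after the filter on low counts. At the level of subfamilies, 93 entered the test and 10 did not. TcMar loci received 429616 of the 14263343 counts assigned to repeats.

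RNA was sequenced from IMR90 ER:RAS cells, an established human lung fibroblast line carrying a RAS oncogene fused to a hormone-binding domain of the estrogen receptor, so that 4-hydroxytamoxifen (4OHT) switches RAS on and the cells enter oncogene-induced senescence. The groups were DMSO with a non-targeting siRNA (DMSO siNT, 5 libraries), 4OHT with the non-targeting siRNA (4OHT siNT, 6 libraries) and 4OHT with an siRNA against SMARCA4 (4OHT siSMARCA4, 6 libraries). SMARCA4 (BRG1) is the motor subunit of SWI/SNF complexes, which slide and evict nucleosomes. Cells were transfected a day before 4OHT and RNA was taken on day 7, and all 3 groups carried the ER:RAS transgene. The knockdown was measured only under 4OHT, since no library combined DMSO with siSMARCA4. The labels give each siRNA a number, 2 or 4, and each library a tag of a number with the letters V or VM, whose meaning they do not state. Libraries are written as siRNA number and tag. DMSO siNT libraries 2-2V and 2-2VM, siSMARCA4 libraries 2-3V and 2-3VM, and siSMARCA4 libraries 4-2V and 4-2VM differ only in the letters. All 6 4OHT siNT libraries were VM, against 3 of 6 4OHT siSMARCA4 and 3 of 5 DMSO siNT libraries. Nothing in the labels states that the libraries of a group came from separate cultures, so the p-values measure only the spread between these libraries.

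DNA transposons move by cut and paste: a transposase binds the terminal inverted repeats (TIRs) at both ends of the element and inserts the excised copy elsewhere. Tc1/mariner elements insert at the dinucleotide TA, which is duplicated, so an intact copy is bounded by TA on each side. In the human genome these elements are regarded as fossils that no longer move, and MADE1 is a short, internally deleted relative of the mariner HSMAR1. Several transposase genes of this superfamily were taken over as host genes, among them CENPB, POGZ and SETMAR.

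MADE1 palindromes can fold into hairpins, and some miRNAs of the miR-548 family lie within them. Of 1562 hairpins in the RefSeq miRNA table (GRCh38.p14), 27 overlapped a TcMar locus and 15 lay wholly inside it, 4 of them inside MADE1.

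Few copies carried both features of an intact end at their annotated borders. TA stood on both sides of 9634 TcMar loci (5.50%), against 1696 loci (0.417%) of the 406446 hAT loci, another superfamily of DNA transposons that inserts at other targets. A TIR of at least 12 bases, scored 1 for a match and -2 for a mismatch from the outermost base inward, was found in 5853 TcMar loci (3.34%) and 8977 hAT loci (2.21%). Both features together were present at 3061 TcMar loci (1.75%) and at 13 hAT loci (0.0032%). MADE1, with 7324 loci, held 1194 of the TcMar copies that had both, or 16.3% of its own loci. Of all Tigger loci 1.19% had both, against 7.25% of Mariner loci. Loci that had both received 7363 counts, 1.71% of all TcMar counts. The letters of the CENP-B box, NTTCGNNNNANNCGGGN, searched on both strands, occurred 3 times in TcMar loci (0.0592 per Mb) and 5 times in hAT loci (0.0639 per Mb).

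The ends are shown for a pair of copies to which the measurements below return. The first is the Tigger2 copy at chr7:27539653-27542304, in an intron of HIBADH, with TA on both sides and a TIR of 15 bases in capitals, of which 15 paired. The second is the Tigger4 copy at chr12:78027491-78030192, in an intron of NAV3, with a TIR of 14 bases in capitals, of which 11 paired, and it was not flanked by TA on both sides. Both are given on the plus strand of GRCh38.
Tigger2 left end, chr7:27539653-27539692: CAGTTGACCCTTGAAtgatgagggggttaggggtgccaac
Tigger2 right end, chr7:27542265-27542304: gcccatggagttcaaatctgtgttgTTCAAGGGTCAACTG
Tigger4 left end, chr12:78027491-78027530: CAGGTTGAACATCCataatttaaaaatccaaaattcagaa
Tigger4 right end, chr12:78030153-78030192: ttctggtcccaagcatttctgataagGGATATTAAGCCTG

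The Tigger family made up 147520 loci in 81 subfamilies and received 91.4% of the TcMar counts. Mariner elements, the family of HSMAR1, HSMAR2, MADE1, MADE2 and MARNA, had 17858 loci and 5.41% of the counts. The Tc2 family, to which the Kanga subfamilies belong, had 8663 loci and 2.60% of the counts, and Tc1 had 962 loci and 0.539%. By GENCODE 44, 63.2% of TcMar loci lay in introns, 32.5% outside genes and 4.30% overlapped an exon. Their counts were placed differently: 30.2% came from the loci that overlapped exons, 59.8% from introns and 10.03% from outside genes. For all repeats together the shares of counts were 33.4%, 52.2% and 14.4%. Counts were also concentrated on few loci, with 8.15% of TcMar counts on a single Tigger2 copy and 16.9% on the 10 loci with the most. The paper counted with a stranded setting, but the repeat rows do not give the strand of the element. Whether a read ran with or against the host gene is therefore not known here, and a read from an intron may belong to the unspliced transcript of the host.

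Library depth, summed over genes and repeats, ranged from 39.1 M to 69.0 M counts (M, 1e6). Totals over TcMar or other repeats, families, places and marker lists are given as counts per 1e6 (CPM) of that sum. For each subfamily, single locus and single gene, CPM used that sum after scaling by the TMM factor of the library, taken from the edgeR fit. SMARCA4 averaged 198 CPM in DMSO siNT, 268 in 4OHT siNT and 88.0 in 4OHT siSMARCA4 (knockdown log2 fold change -1.61, edgeR adjusted p = 5.14e-07). All 8 fibroblast markers were detected, and their summed level was 24186 to 28998 CPM in DMSO siNT, 13051 to 16556 in 4OHT siNT and 7459 to 10635 in 4OHT siSMARCA4. Of these markers the collagen gene COL1A1 averaged 10766, 6291 and 2291 CPM in the same order and the intermediate filament gene VIM 5982, 5963 and 5717 CPM. Of the epithelial markers, 2 of 3 had any count and KRT5 had none, with a summed level of at most 1.40 CPM in any library. Endothelial markers summed to 0.842 to 1.94, 3.44 to 5.25 and 1.72 to 4.195 CPM in the same order of groups. Immune markers summed to 20.4 to 30.3 CPM over all libraries, nearly all of it from CD68, which averaged 22.5, 25.9 and 25.1 CPM in the same order of groups. PTPRC averaged 0.0443, 0.0544 and 0.0624 CPM and CD3E 0, 0 and 0.00318 CPM. Since these are bulk samples, fewer cells of a type and less RNA per cell cannot be told apart, and the part of these differences in the results below was not tested.

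The first question was how much of the transcriptome came from TcMar loci in each condition. In DMSO siNT the TcMar level was 452, 602, 488, 395 and 368 CPM. In 4OHT siNT its lowest, median and highest values were 395, 410 and 504 CPM, and in 4OHT siSMARCA4 they were 439, 510 and 686 CPM. The DMSO libraries ran from below the lowest 4OHT library to above the highest 4OHT siNT library, and the 4OHT groups overlapped. On average TcMar loci received 534 ± 84.8 CPM in 4OHT siSMARCA4 and 431 ± 42.2 CPM in 4OHT siNT (SD, n = 6 each), a difference of 102 CPM (exact 2-sided permutation test, p = 0.0152). Between 4OHT siNT and DMSO siNT (461 ± 91.7 CPM, n = 5) the exact permutation test gave p = 0.528.

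The 4OHT groups were also compared, unpaired, within the labels that could matter. With VM libraries alone the 4OHT siSMARCA4 mean was 482 CPM (exact permutation p = 0.143). Within siRNA number 2 the difference was 68.6 CPM and within number 4 it was 136 CPM, each with an exact permutation p of 0.2, where 3 libraries against 3 cannot go below 0.1. All repeats together, TcMar included, took 1.73% of counts in 4OHT siSMARCA4 and 1.45% in 4OHT siNT (exact permutation p = 0.00649). In the VM libraries alone the share was 1.67% against 1.45% (exact permutation p = 0.0714). As a share of repeat counts, TcMar stood at 3.07% ± 0.386 in 4OHT siSMARCA4, 2.98% ± 0.183 in 4OHT siNT and 2.97% ± 0.412 in DMSO siNT, and neither contrast passed the exact permutation test (p = 0.671 for the knockdown, p = 0.978 for 4OHT). Against hAT, the log2 ratio of TcMar to hAT counts was -0.97 ± 0.052 in 4OHT siSMARCA4 and -1.08 ± 0.066 in 4OHT siNT, a difference of 0.11 (exact permutation p = 0.013), which was 0.08 in the VM libraries (p = 0.0952).

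By place, TcMar loci outside genes averaged 52.8 CPM in 4OHT siSMARCA4, 41.9 in 4OHT siNT and 49.0 in DMSO siNT (knockdown exact permutation p = 0.00866, Benjamini-Hochberg adjusted p = 0.0666 over 14 tests). Intronic loci averaged 328 ± 60.8 CPM in 4OHT siSMARCA4 and 264 ± 19.9 CPM in 4OHT siNT (exact permutation p = 0.0238, adjusted p = 0.0666). Exonic loci averaged 153 and 125 CPM in these groups and 156 CPM in DMSO siNT (knockdown exact permutation p = 0.177, adjusted p = 0.275). Of the families, Tigger averaged 489 against 397 CPM, Mariner 28.0 against 21.7, Tc2 13.5 against 10.6 and Tc1 2.95 against 2.37 under the knockdown. None of these 7 knockdown tests passed after adjustment, and 5 had an unadjusted p under 0.05. The composition itself was nearly the same in both 4OHT groups, with 61.2% of TcMar counts from introns under siSMARCA4 and 61.5% under siNT (exact permutation p = 0.898).

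**Figure D1:**
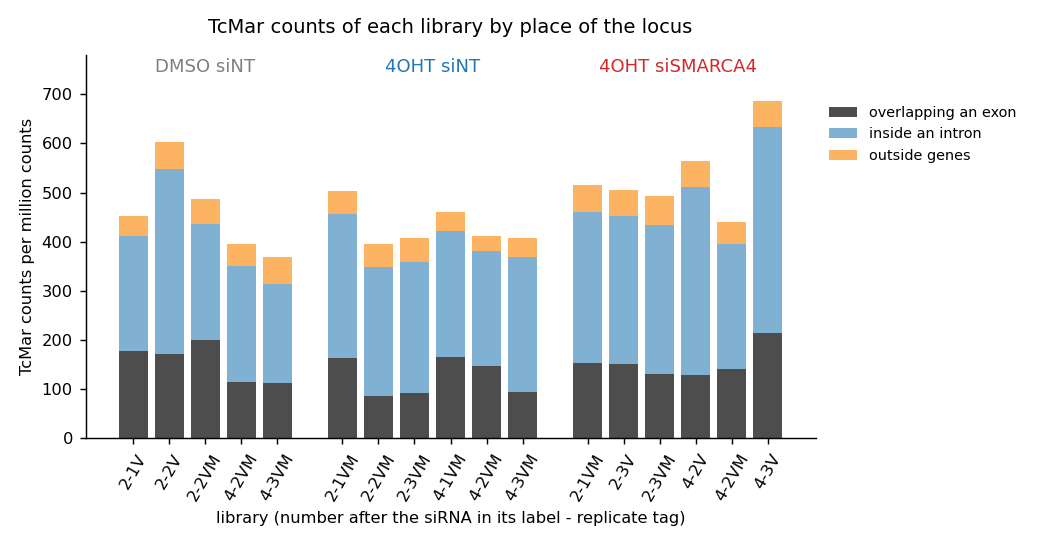
TcMar level (CPM, y axis) in each of the 17 libraries (x axis, by group), stacked by place of the locus: overlapping an exon, in an intron or outside genes. The intronic part is the largest in each library, and the 4OHT siSMARCA4 bars reach from 439 to 686 CPM against 395 to 504 CPM in 4OHT siNT.

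With SMARCA4 knocked down in 4OHT-treated cells, 20 of the 93 tested TcMar subfamilies rose and 1 fell (edgeR, adjusted p under 0.05). That is 22.6% of them, beside a background of 20.4% called among all 1026 subfamilies, of which 199 rose (19.4%) and 10 fell (0.975%). Of 144 hAT subfamilies, 18 rose (12.5%). The median log2 fold change was 0.32 over TcMar subfamilies and 0.25 over all subfamilies, and 82 of the 93 were above 0. The subfamilies that rose comprised 16 of 76 Tigger, 2 of 5 Mariner and 2 of 8 Tc2. In 8 of the 20 the libraries of the 4OHT groups did not overlap. Over all 93 tested TcMar subfamilies it was also 8, and no such count over all subfamilies is given to set beside it.

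Among Tc2 elements, Kanga1a stood at 0.611, 1.27, 0.590, 0.639 and 0.755 CPM in DMSO siNT. Its lowest, median and highest levels were 0.392, 0.611 and 0.7003 CPM in 4OHT siNT and 0.805, 1.08 and 1.18 CPM in 4OHT siSMARCA4. The 4OHT groups did not overlap, and the log2 change of Kanga1a was 0.81 ± 0.21 (SE throughout for log2 changes; edgeR adjusted p = 0.0126). Kanga1d, named after its values were seen, also rose (0.91), but lost the call in 9 of the 12 fits that left out 1 library (adjusted p up to 0.109), keeping it without 4OHT siNT library 2-1VM or 2-3VM or siSMARCA4 library 4-2VM.

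Tigger2, an autonomous Tigger subfamily with the second most TcMar counts (49585), was at 50.9, 57.4, 48.7, 51.7 and 63.2 CPM in DMSO siNT. It was at 35.1, 46.2 and 54.2 CPM (lowest, median, highest) in 4OHT siNT and 57.3, 65.9 and 69.8 CPM in 4OHT siSMARCA4, so that each knockdown library lay above each 4OHT control library. Tigger2 rose by 0.52 ± 0.10 (edgeR adjusted p = 0.00493). A single locus held 70.6% of its counts, and without the locus with most counts of each subfamily the change of Tigger2 was 0.21 (edgeR adjusted p = 0.127).

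Tigger4 was at 5.37, 7.02, 5.27, 5.46 and 4.98 CPM in DMSO siNT, at 5.15, 5.45 and 6.47 CPM in 4OHT siNT and at 7.12, 7.45 and 9.95 CPM in 4OHT siSMARCA4. The 4OHT groups were again apart, with a rise of 0.49 ± 0.11 (edgeR adjusted p = 0.00742). Its top locus, the NAV3 copy whose ends are printed above, held 45.6% of the counts, and without it Tigger4 changed by 0.29 (edgeR adjusted p = 0.177).

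Without the top loci 22 of 88 tested TcMar subfamilies rose and 0 fell, beside 22.2% of all 944 subfamilies called, and 16 of the 20 risen subfamilies stayed called. The calls lost were those of Tigger2, Tigger4, MERX (adjusted p = 0.0823) and Tigger6b (0.0862), which all kept a change above 0. Tigger2a was at 3.54, 5.37, 4.04, 4.08 and 4.23 CPM in DMSO siNT, at 4.84, 5.04 and 5.39 CPM in 4OHT siNT and at 5.91, 6.78 and 8.29 CPM in 4OHT siSMARCA4. It rose by 0.46 ± 0.10 (edgeR adjusted p = 0.00769), and by 0.54 without its top locus (adjusted p = 0.00755). X6a_DNA was at 2.81, 3.46, 2.84, 2.40 and 2.28 CPM in DMSO siNT, at 2.00, 2.14 and 2.61 CPM in 4OHT siNT and at 2.92, 3.31 and 4.38 CPM under siSMARCA4. Its groups did not overlap (0.66 ± 0.14, edgeR adjusted p = 0.00647, and 0.65 without its top locus). Tigger18a, at 3.02, 4.42, 2.64, 3.02 and 2.87 CPM in DMSO siNT, had 1.80, 2.17 and 2.82 CPM in 4OHT siNT and 3.08, 3.21 and 4.31 CPM under siSMARCA4. This too was a rise without overlap (0.62 ± 0.14, edgeR adjusted p = 0.00884, and 0.63 without its top locus).

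The other members without overlap were MER2 and, named after its values were seen, Tigger2b_Pri. MER2, a short nonautonomous Tigger relative, ranged from 16.1 to 23.2 CPM in group means and rose by 0.43 ± 0.13 (edgeR adjusted p = 0.0226), a call lost without 4OHT siNT library 4-2VM (0.0537) or siSMARCA4 library 4-3V (0.0525). Tigger2b_Pri lost its call in 6 such fits (adjusted p up to 0.07), those without 4OHT siNT library 4-1VM, 4-2VM or 4-3VM or siSMARCA4 library 2-1VM, 4-2V or 4-3V. Among mariners, all given outside the rule for naming, HSMAR2 (0.54) and MADE2 (0.58) rose, while MADE1 (0.44, edgeR adjusted p = 0.0507), MARNA (0.26) and HSMAR1 (-0.04) did not pass. Tigger1, the subfamily with the most counts (52289), had group means of 55.4 CPM in DMSO siNT, 55.4 CPM in 4OHT siNT and 62.7 CPM in 4OHT siSMARCA4 (log2 change 0.18, edgeR adjusted p = 0.189). Tigger3a (0.17), Tigger15a (0.25) and X12_DNA (-0.08), also among the 6 with the most counts, did not pass either.

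Tigger11a was the subfamily that fell. It was at 2.63, 3.14, 4.39, 3.14 and 2.57 CPM in DMSO siNT, at 3.81, 5.75 and 7.92 CPM in 4OHT siNT and at 1.59, 3.41 and 4.38 CPM in 4OHT siSMARCA4, and the 4OHT groups overlapped. Its log2 change was -0.83 ± 0.24 (edgeR adjusted p = 0.0221). In 4OHT siNT the libraries of siRNA number 2 were at 7.25, 7.92 and 7.71 CPM and those of number 4 at 3.89, 3.81 and 4.26 CPM, without overlap. One locus outside genes held 66.0% of its counts, and without top loci the change was 0.00 (edgeR adjusted p = 0.984).

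**Figure D2:**
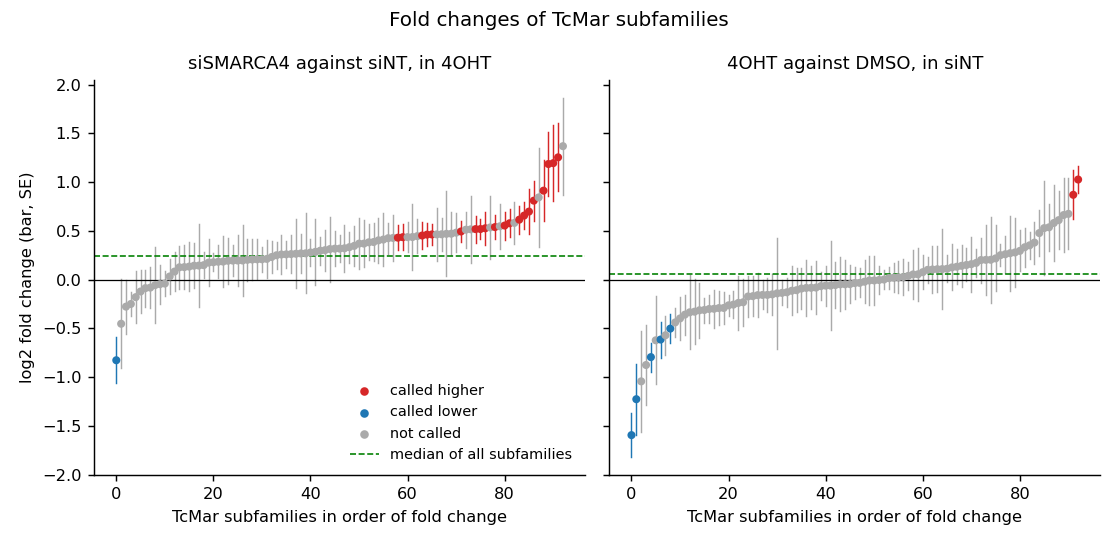
Log2 fold change with its standard error (y axis) of the 93 tested TcMar subfamilies, ordered along the x axis, for siSMARCA4 against siNT in 4OHT and for 4OHT against DMSO in siNT, with the median of all subfamilies as a dashed line. In the knockdown contrast 82 of 93 points lie above 0, and the TcMar median of 0.32 sits close to the median of 0.25 over all subfamilies.

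Repeat loci over 50000 bases from any gene with at most 20 counts in all (39657 loci, satellites and TcMar left out), taken as a measure of scattered reads, summed to 110 CPM in 4OHT siSMARCA4, 53.9 CPM in 4OHT siNT and 73.1 CPM in DMSO siNT, and the 4OHT groups did not overlap (exact permutation p = 0.00216, the smallest this design allows). In a fit with its log level as a covariate, 0 of 93 TcMar subfamilies passed (edgeR; 27 at an unadjusted p under 0.05), beside 0.195% of all, with a TcMar median of 0.40. Genes called fell as well, from 24.2% to 7.04%. Since the covariate itself set the 4OHT groups apart, it and the knockdown cannot be told apart in this fit, here or for loci below. No conclusion is drawn from the lost calls. In the VM libraries alone 7 TcMar subfamilies rose and 2 fell (9.55% of all called), with V or VM as a covariate 3 rose and 1 fell (5.75% of all), with library scaling from repeats alone 0 rose and 2 fell (2.73% of all, with the median over all subfamilies moved to 0.01 and that over TcMar to 0.08), and 13 were called without siSMARCA4 library 4-3V (12 rose and 1 fell, 17.8% of all called). Without 4OHT siNT library 4-2VM 14 were called, of which 13 rose (12.4% of all). Each of 13 of the 21 called subfamilies passed in all 12 fits that left out 1 library, and 8 did not: Kanga1d, Tigger6b, MER47B, Tigger13a, Tigger2b_Pri, MER44B, MER2 and X11_DNA, all but MER2 named after their values were seen. All 20 that rose kept a change above 0 in the covariate, VM and repeat-scaled fits. A test of whether the knockdown change differed between siRNA numbers 2 and 4 called 0 of 93 TcMar subfamilies (edgeR; 2 at an unadjusted p under 0.05). Over all 1026 subfamilies it also called 0 (50 unadjusted). It rested on 3 libraries of each number in each 4OHT group, so it does not show that the siRNAs agree.

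In the contrast of 4OHT with DMSO, both with siNT, 2 TcMar subfamilies rose and 5 fell, 7.53% of the 93. The background was 16.9% of all 1026 subfamilies (104 risen, 10.1%, and 69 fallen, 6.73%) and 20.1% of hAT subfamilies. The median log2 fold change was -0.04 over TcMar and 0.05 over all subfamilies. The balance of rises and falls turned with V or VM as a covariate, where 6 TcMar subfamilies rose and 3 fell (median 0.14, all subfamilies 20.7% called, median 0.16). In the VM libraries alone 3 rose and 3 fell (TcMar median 0.0983, all subfamilies 15.4% called), and without exonic loci 6 rose and 6 fell (19.0% of all). The TcMar median was -0.26 within siRNA number 2 (all subfamilies -0.11) and 0.28 within number 4 (all subfamilies 0.22). This contrast uses the same 4OHT siNT libraries as the knockdown contrast, in the opposite role, so values of both are given side by side and are not independent. Without the locus with most counts of each subfamily, 0 of the 7 passed and 2 other subfamilies did (7.42% of all called), while all 7 kept their direction.

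MER46C was at 7.73, 10.4, 8.84, 8.42 and 7.33 CPM in DMSO siNT and at 15.1, 17.8 and 18.5 CPM in 4OHT siNT, with no overlap. It rose by 1.03 ± 0.14 (edgeR adjusted p = 1.89e-05), and with SMARCA4 knocked down it was at 10.5, 14.4 and 18.5 CPM (change -0.25, edgeR adjusted p = 0.173). The siSMARCA4 VM libraries, at 14.2, 11.8 and 10.5 CPM, all lay below the 4OHT siNT libraries, and the knockdown change of MER46C was -0.50 in the VM libraries alone (edgeR adjusted p = 0.015), -0.44 with V or VM as a covariate (adjusted p = 0.0406) and -0.50 with library scaling from repeats (adjusted p = 0.0188). An intronic locus in FAM20C held 44.3% of its counts, and without top loci the 4OHT change of MER46C was 0.21 (edgeR adjusted p = 0.413). Without top loci its knockdown change turned to 0.25 (edgeR adjusted p = 0.152), so the fall was not seen in the rest of the subfamily. Tigger11a also rose with 4OHT (0.87 ± 0.25, edgeR adjusted p = 0.0215), with overlapping groups, a call lost without DMSO library 2-1V or 4-3VM or 4OHT siNT library 2-1VM, 2-2VM or 2-3VM (adjusted p up to 0.0599).

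Kanga11a had the largest fall among the called subfamilies, from 1.55, 1.95, 1.77, 1.45 and 0.923 CPM in DMSO siNT to 0.379, 0.494 and 0.623 CPM in 4OHT siNT. The groups did not overlap, and the log2 change was -1.60 ± 0.22 (edgeR adjusted p = 3.48e-05). In 4OHT siSMARCA4 it was at 0.439, 0.767 and 1.00 CPM (change 0.58, edgeR adjusted p = 0.0651). Tigger6a went from 1.92, 2.53, 2.50, 2.19 and 2.25 CPM in DMSO siNT to 0.871, 1.34 and 1.59 CPM in 4OHT siNT, a fall without overlap (-0.80 ± 0.15, edgeR adjusted p = 0.000792), and stood at 1.56, 1.98 and 2.09 CPM under siSMARCA4, where it rose by 0.55 (edgeR adjusted p = 0.0136). Without top loci the 4OHT changes were -0.64 for Kanga11a and -0.27 for Tigger6a, and neither passed.

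MERX, a low subfamily, was at 0.384, 0.597, 0.243, 0.213 and 0.218 CPM in DMSO siNT, at 0.0784, 0.144 and 0.198 CPM in 4OHT siNT and at 0.141, 0.335 and 0.541 CPM under siSMARCA4. It fell with 4OHT by 1.23 (SE 0.36, edgeR adjusted p = 0.0246) without overlap and rose with the knockdown by 1.25 (adjusted p = 0.019) with overlap. The 4OHT call was lost without DMSO library 2-2V (adjusted p = 0.0702). Tigger9b fell from 1.19, 1.61, 1.49, 1.61 and 1.78 CPM in DMSO siNT to 0.599, 1.10 and 1.14 CPM in 4OHT siNT (-0.61 ± 0.18, edgeR adjusted p = 0.0267, no overlap), and the call was lost without DMSO library 4-3VM (0.0704) or 4OHT siNT library 4-2VM (0.0539). Tigger18a, which rose with the knockdown, fell with 4OHT (-0.50, edgeR adjusted p = 0.0259) with overlapping groups, and lost that call without DMSO library 2-2V (0.0589) or 4OHT siNT library 4-1VM (0.0536) or 4-2VM (0.0501).

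**Figure D3:**
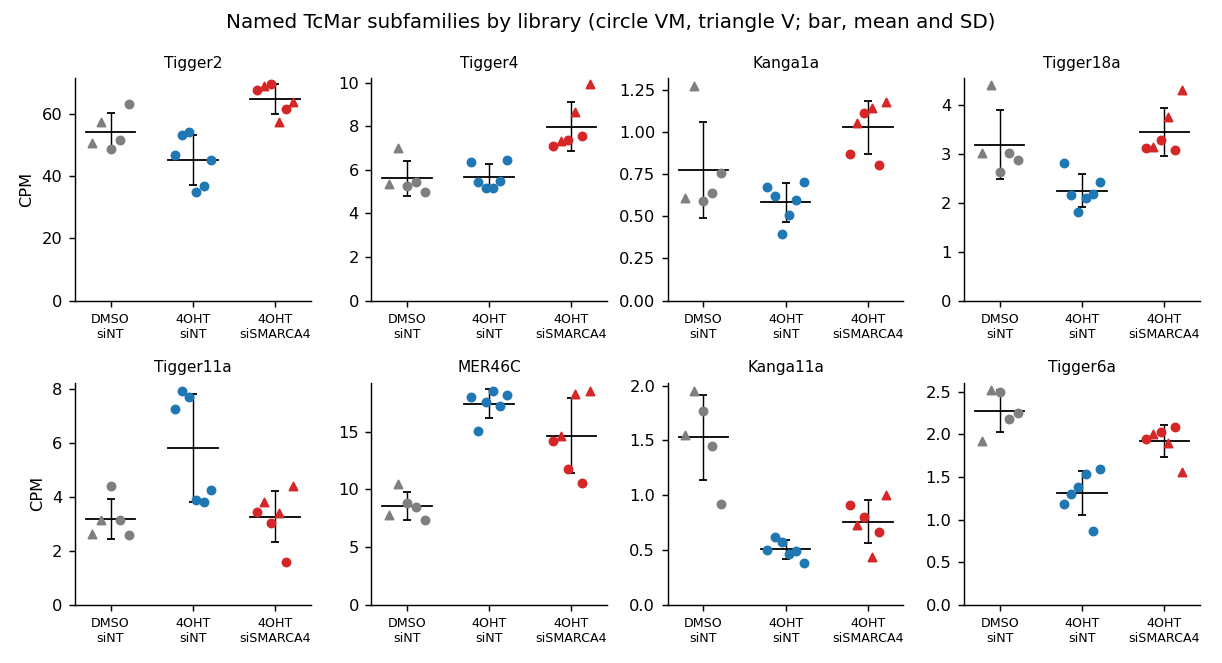
Level in CPM (y axis) of 8 TcMar subfamilies in each library by group (x axis), with circles for VM and triangles for V libraries and the group mean with its SD. Tigger2, Tigger4 and Kanga1a are higher in each 4OHT siSMARCA4 library than in any 4OHT siNT library, and MER46C is higher in each 4OHT siNT library than in any DMSO siNT library.

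At single loci, 13 of 424 TcMar loci rose and 7 fell with the knockdown, 4.72% beside a background of 6.16% of all 13026 tested repeat loci, of which 4.36% rose and 1.80% fell (hAT, 4.69% called). The median log2 change was 0.14 over TcMar loci and 0.14 over all. All 4OHT siNT libraries were VM, and in the VM libraries alone 7 TcMar loci rose and 8 fell, with a median of -0.0370 (all loci, 5.26% called, median 0.0844). With V or VM as a covariate 9 rose and 9 fell, with a median of -0.0422 (all loci, 5.60% called, median 0.0941). All 20 called loci were of the Tigger family, which held 382 of the 424. By place, 11 of 246 intronic loci rose and 5 fell, 1 of 134 exonic loci rose and 1 fell, and 1 of 44 loci outside genes rose and 1 fell. The groups did not overlap for 8 of the 13 that rose and 2 of the 7 that fell. They did not overlap for 17 of all 424 tested TcMar loci, and no such count over all repeat loci is given. The count of called loci moved from 20 to 10 without 4OHT siNT library 2-1VM, to 13 without 4-1VM and to 11 without 4-2VM of that group. It was 13, 11 and 11 without siSMARCA4 library 2-1VM, 2-3V or 2-3VM. In these 6 fits the share called among all loci was 2.55%, 3.26%, 2.82%, 3.06%, 2.95% and 3.09%. With the scattered reads as a covariate 0 of the 20 stayed called (0.115% of all loci), with siRNA number 4 alone 0 (0.0537% of all) and with number 2 alone 1 of the 13 that rose and 1 of the 7 that fell (0.353% of all), while all 20 kept their direction in these fits. Of the 20 loci, 8 passed in each of the 12 fits that left out 1 library and 12 lost the call in at least 1.

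The Tigger2 copy at chr4:139695842-139699585, with 35008 counts, overlaps the exon of the processed histone pseudogene H3P16 within an intron of MGST2, which encodes a glutathione S-transferase. It was at 39.9, 40.6, 37.4, 40.2 and 53.0 CPM in DMSO siNT, at 19.9, 28.8 and 36.7 CPM in 4OHT siNT and at 36.7, 47.6 and 50.5 CPM in 4OHT siSMARCA4. The locus fell with 4OHT by 0.55 (SE 0.14, edgeR adjusted p = 0.00555, no overlap) and rose with the knockdown by 0.67 ± 0.13 (edgeR adjusted p = 0.0101), the 4OHT groups meeting at their ends. H3P16 itself, counted as a gene, rose with the knockdown by 0.57. The pseudogene and the repeat share reads that the counting divides, so neither level is certain on its own.

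The Tigger4 copy in an intron of NAV3, which encodes a microtubule-associated neuron navigator protein, is named after its values were seen. It was at 1.68, 2.56, 2.26, 2.85 and 2.76 CPM in DMSO siNT, at 2.04, 2.34 and 2.87 CPM in 4OHT siNT and at 3.14, 4.00 and 4.698 CPM in 4OHT siSMARCA4. Each knockdown library was above each 4OHT control library (0.73 ± 0.15, edgeR adjusted p = 0.0118). NAV3 itself changed by 0.12 (edgeR adjusted p = 0.588).

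A UCON55 locus at chr8:32741029-32741212 lies in an intron of NRG1, a growth factor ligand of ERBB receptors. Its counts summed to 2 in DMSO siNT, 28 in 4OHT siNT and 139 in 4OHT siSMARCA4. The lowest, median and highest levels were 0.0253, 0.0917 and 0.132 CPM in 4OHT siNT and 0.320, 0.392 and 0.545 CPM under siSMARCA4, with a rise of 2.17 ± 0.36 (edgeR adjusted p = 0.00425). The locus could pass the filter on low counts only with the siSMARCA4 libraries, where it was high. Its rise is therefore given as a value, and its p is not independent support. NRG1 rose by 0.53 with the knockdown and by 3.44 with 4OHT.

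The Tigger14a locus at chr4:75948432-75948549 in an intron of SDAD1 moved in opposite directions in the 2 contrasts. It was at 0.277, 0.328, 0.285, 0.267 and 0.583 CPM in DMSO siNT, at 0.0362, 0.0935 and 0.107 CPM in 4OHT siNT and at 0.150, 0.246 and 0.291 CPM under siSMARCA4, with no overlap in either contrast. Its log2 change was -2.01 with 4OHT (edgeR adjusted p = 9.91e-05) and 1.44 ± 0.32 with the knockdown (adjusted p = 0.0161). The 4OHT siNT libraries alone could not carry this locus past the filter on low counts, so it entered the test through groups where it was higher. Both changes are therefore values, and neither p is independent support. SDAD1 changed by 0.17 and 0.21 and passed in neither.

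Further loci rose without overlap. A MamRep434 locus in an intron of PAPPA, a protease that releases insulin-like growth factors from their binding proteins, went from 0.127, 0.196 and 0.235 CPM in 4OHT siNT to 0.360, 0.471 and 0.881 CPM (1.43, edgeR adjusted p = 0.022), and PAPPA itself rose by 1.04. A Tigger3b locus in an intron of the zinc finger gene GLIS3 rose by 1.36 (adjusted p = 0.0171). A Tigger3 locus in an intron of CENPA, the centromeric histone H3 variant, rose by 1.36 (adjusted p = 0.0388), a call lost in 8 of the fits that left out a library (adjusted p up to 0.101) and kept without 4OHT siNT library 2-2VM or 2-3VM or siSMARCA4 library 4-2V or 4-3V.

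A Tigger1 copy outside genes, at chr5:120794260-120795016 and 3482 bases from ENSG00000248927, was at 0.351, 0.389, 0.356, 0.595 and 0.583 CPM in DMSO siNT, at 0.189, 0.381 and 0.447 CPM in 4OHT siNT and at 0.507, 0.755 and 1.47 CPM in 4OHT siSMARCA4. It rose by 1.27 (edgeR adjusted p = 0.0163) without overlap. The remaining loci that rose, named after their values were seen, were a MamRep434 locus in ANTXR1 (0.74, no overlap), Tigger3 in ZNF862 (0.96), Tigger2 in RALA (1.17), X4b_DNA in KLHL5 (2.21) and Tigger19b in CNIH3 (0.44). The calls in ANTXR1, ZNF862, RALA and CNIH3 were each lost in 8 of the 12 fits that left out 1 library (adjusted p up to 0.0731, 0.0876, 0.0867 and 0.0973), each time without 4OHT siNT library 2-1VM, 4-1VM or 4-2VM or siSMARCA4 library 2-3V or 2-3VM and without 3 more. The call in KLHL5 was lost without 4OHT siNT library 2-1VM (0.0543).

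The loci that fell with the knockdown lay mostly in host genes that fell too. The MER46C locus at chr7:198397-198681 is in an intron of FAM20C, a Golgi kinase of secreted proteins. It is printed because it carried 44.3% of the MER46C counts (GRCh38, plus strand, lower case throughout because 0 of its 285 bases lie in an annotated exon).
MER46C chr7:198397-198681: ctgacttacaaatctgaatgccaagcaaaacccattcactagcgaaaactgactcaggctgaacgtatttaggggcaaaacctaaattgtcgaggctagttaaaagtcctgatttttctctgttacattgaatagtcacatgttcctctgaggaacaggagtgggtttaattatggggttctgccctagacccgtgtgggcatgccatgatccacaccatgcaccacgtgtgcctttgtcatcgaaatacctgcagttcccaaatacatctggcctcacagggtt
The locus was at 2.26, 2.34, 2.51, 2.40 and 1.502 CPM in DMSO siNT, at 8.11, 9.83 and 10.8 CPM in 4OHT siNT and at 3.20, 5.89 and 8.61 CPM in 4OHT siSMARCA4. It rose with 4OHT by 2.15 ± 0.21 (edgeR adjusted p = 3.97e-07) with no overlap, and fell with the knockdown by 0.78 (SE 0.19, adjusted p = 0.0231) with overlap, the latter call lost without 4OHT siNT library 4-2VM (0.0503) or siSMARCA4 library 2-3VM (0.0514). FAM20C changed in the same directions, by 0.97 and -0.40.

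The Tigger2 copy at chr5:33617962-33619655, in an intron of the extracellular protease gene ADAMTS12, was at 0.314, 0.287, 0.285, 0.328 and 0.0707 CPM in DMSO siNT, at 0.361, 0.599 and 1.17 CPM in 4OHT siNT and at 0.109, 0.244 and 0.352 CPM in 4OHT siSMARCA4. Neither contrast had overlap: it rose with 4OHT by 1.34 and fell with the knockdown by 1.46 (SE 0.36, edgeR adjusted p = 0.0245), beside 0.74 and -0.76 for ADAMTS12. The knockdown call was lost without 4OHT siNT library 2-1VM (adjusted p = 0.0654) or siSMARCA4 library 2-3V (0.0557) or 2-3VM (0.0527).

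A pair of neighbouring loci in an intron of F3, which encodes tissue factor, the initiator of blood coagulation, fell together. The Tigger16b locus at chr1:94538199-94538386 was at 0.555, 0.328, 0.178, 0.246 and 0.247 CPM in DMSO siNT, at 0.630, 0.913 and 0.966 CPM in 4OHT siNT and at 0.120, 0.409 and 0.520 CPM under siSMARCA4. It fell with the knockdown by 1.21 (SE 0.31, edgeR adjusted p = 0.029, no overlap), and rose with 4OHT by 1.45. The knockdown call was lost without 4OHT siNT library 4-1VM, 4-2VM or 4-3VM or siSMARCA4 library 2-1VM or 2-3V (adjusted p up to 0.0672). The MamRep434 locus beside it, named after its values were seen, fell by 1.83, and F3 fell by 0.65.

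The other loci that fell, named after their values were seen, were the main Tigger11a locus outside genes, 6317 bases from COLEC10 (-1.25, edgeR adjusted p = 0.0258), Tigger1 in an intron of AK3, a mitochondrial adenylate kinase (-0.98), and Tigger15a in an exon of HDLBP, an RNA-binding protein (-0.96). The call in AK3 was lost in 10 of the 12 fits that left out 1 library (adjusted p up to 0.102; kept without 4OHT siNT library 4-1VM or siSMARCA4 library 4-2V). That in HDLBP was lost in 8 (up to 0.0784), namely without 4OHT siNT library 2-1VM, 4-1VM, 4-2VM or 4-3VM or siSMARCA4 library 2-3V, 2-3VM, 4-2VM or 4-3V. That of the Tigger11a locus was lost in 4 (up to 0.0612), without 4OHT siNT library 2-1VM or 2-2VM or siSMARCA4 library 2-1VM or 2-3VM. AK3 itself did not pass (adjusted p = 0.86), while HDLBP fell by 0.45. Among the 6 loci with most counts, the Tigger2 copy in HIBADH whose ends are printed above was at 3.42, 3.52, 3.10, 3.71 and 3.82 CPM in DMSO siNT, at 3.24, 4.11 and 5.02 CPM in 4OHT siNT and at 2.97, 3.31 and 3.72 CPM under siSMARCA4, and passed in neither contrast (knockdown -0.30, edgeR adjusted p = 0.131). The Tigger3a locus in DGKI (11577 counts), the Tigger1 locus that holds MIR4477B (3319 counts) and the Tigger23a locus in an exon of TRNP1 did not pass in either contrast. The Tigger1 locus at chr9:63819223-63820455 and its counterpart with MIR4477A at chr9:41232881-41234160 are 1233 and 1280 bases long. Their sequences were not compared, and how far reads were divided between them is not known.

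With 4OHT, 58 TcMar loci rose and 44 fell, 24.1% of 424, against a background of 27.5% of all tested repeat loci (18.1% risen, 9.33% fallen) and 28.6% of hAT loci. The median log2 change was 0.06 over TcMar and 0.16 over all loci. Within siRNA number 2 the TcMar median was -0.12 (all loci 0.15) and within number 4 it was 0.44 (all loci 0.25). It was 0.24 in the VM libraries (all loci 0.22) and 0.22 with V or VM as a covariate (all loci 0.22). Of 246 intronic loci 48 rose and 18 fell, of 134 exonic loci 4 rose and 13 fell, and of 44 loci outside genes 6 rose and 13 fell. Of 30 Mariner loci 2 rose and 8 fell, and of 382 Tigger loci 56 rose and 34 fell. The groups did not overlap for 39 of those that rose and 25 of those that fell. They did not overlap for 68 of all tested TcMar loci, and no such count over all repeat loci is given.

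Among the largest rises were loci in introns of genes that rose themselves. A Tigger19b locus in CNIH3, an auxiliary subunit of AMPA receptors, lies at chr1:224589616-224589881, and is printed as the locus with the most counts of this group (GRCh38, plus strand, lower case throughout because 0 of 266 bases lie in an annotated exon).
Tigger19b chr1:224589616-224589881: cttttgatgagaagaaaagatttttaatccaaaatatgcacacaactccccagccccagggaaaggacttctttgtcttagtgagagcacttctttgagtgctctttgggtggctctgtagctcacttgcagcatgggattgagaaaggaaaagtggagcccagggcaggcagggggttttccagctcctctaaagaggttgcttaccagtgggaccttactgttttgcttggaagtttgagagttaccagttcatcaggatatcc
It was at 0.314, 0.246, 0.338, 0.349 and 0.336 CPM in DMSO siNT, at 2.79, 3.10 and 3.49 CPM in 4OHT siNT and at 3.48, 4.19 and 4.999 CPM in 4OHT siSMARCA4. It rose with 4OHT by 3.29 ± 0.15 (edgeR adjusted p = 1.91e-11). The next Tigger19b fragment went from 10 to 200 counts, 17.1-fold by CPM (exact 95% interval for counting error, 9.11 to 36.2), and a Tigger1 locus in the same intron region rose by 3.39, beside 2.44 for CNIH3. That Tigger19b fragment could pass the filter on low counts only with libraries treated with 4OHT, so its ratio is a value alone.

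Other host genes with several TcMar loci that rose, named after their values were seen, included RIPOR3 (3 loci, 2.00 to 3.36, gene 2.56), SH3RF3 (3 loci, 1.48 to 2.75, gene 0.93), WLS, a carrier of Wnt ligands (2 loci, 2.42 to 2.64, gene 2.74), and ARSG, a lysosomal sulfatase (2 loci, 2.45 to 2.66, gene 1.62). Likewise named, ANTXR1 (0.67 to 1.23, gene 0.43), HMGA2 (0.94 to 1.55, gene 0.39) and F3 (1.45 to 1.52, gene 1.30) had 2 such loci each. Loci in the same host may share its reads, yet each was counted singly in the totals, which are therefore not counts of independent loci. The 47 intronic loci that rose in a tested host lay in 36 hosts. The Tigger17a locus in RIPOR3 went from 7 to 91 counts, 11.1-fold by CPM (5.18 to 28.4), and an X12_DNA locus in the noncoding RNA ENSG00000241679 from 5 to 65 counts, 11.1-fold (4.53 to 35.4). Outside genes, 3 fragments of MER2 within chr20:40988983-40989957 rose together, by 2.26, 2.62 and 2.36, and are also named after their values were seen.

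The Tigger1 copy at chr12:96250973-96252978 in an intron of ELK3, an ETS-family transcription factor, named after its values were seen, rose by 3.16 (edgeR adjusted p = 2.57e-09) while ELK3 fell by 0.68 (adjusted p = 6.77e-06). Opposite calls of locus and host, again named after their values were seen, were also found for RNF141 and SPCS2 among loci that rose and for SVIL-AS1 and WDR37 among loci that fell.

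Among the falls, a copy of the mariner HSMAR1 at chr4:14263388-14264151, outside genes and 20575 bases from ENSG00000249988, was at 0.222, 0.615, 1.42, 0.431 and 0.601 CPM in DMSO siNT. Its counts summed to 177 in DMSO siNT, 1 in 4OHT siNT and 0 in 4OHT siSMARCA4. The DMSO level was 207-fold that in 4OHT siNT, with an exact 95% interval for counting error of 36.7 to 8220. This locus could pass the filter on low counts only with the DMSO libraries, where it was high, so the size of its fall is a value alone. A Kanga11a copy at chr1:149188228-149188908, in an intron of the noncoding RNA ENSG00000274265, had 212, 6 and 31 counts in the same order of groups, a ratio of 41.3 (18.7 to 114), while that RNA changed by -0.01. The Kanga11a copy too could pass the filter only with the DMSO libraries.

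Fragments of Tigger5b and MER47C at chr14:51999272-51999349 and chr14:51999399-51999494 overlap an exon of RTRAF, an RNA-binding regulator of transcription and splicing. Tigger5b had 106 counts in DMSO siNT, 4 in 4OHT siNT and 4 in 4OHT siSMARCA4, a ratio of DMSO to 4OHT siNT of 31.0 (exact 95% interval 11.8 to 116). MER47C had 74, 7 and 10 counts (12.4, interval 5.71 to 31.8). Both fragments could pass the filter on low counts only with the DMSO libraries, where they were high, so their ratios are values alone. RTRAF as a whole changed by 0.03 (edgeR adjusted p = 0.78).

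An X12_DNA locus at chr10:62072907 in an intron of ARID5B, a DNA-binding chromatin regulator, fell from 3.33, 2.58, 1.39, 1.83 and 1.31 CPM in DMSO siNT to 0.145, 0.271 and 0.322 CPM in 4OHT siNT. The log2 change was -2.995 ± 0.31 (edgeR adjusted p = 7.7e-07), beside -1.52 for ARID5B. A Tigger1 copy on the X chromosome, starting at base 16296711 and 97422 bases from the nearest gene, went from 0.314, 0.451, 1.07, 1.07 and 0.831 CPM in DMSO siNT to 0, 0.101 and 0.241 CPM in 4OHT siNT (-2.87, edgeR adjusted p = 0.000897). The 4OHT siNT libraries alone could not carry this copy past the filter on low counts, while the DMSO libraries, where it was high, could. Its fall is therefore a value, and its p is not independent support. Of the 10 Mariner loci called with 4OHT, named here after their values were seen, the ones that rose were MARNA loci in SPCS2 (0.96) and ENO1 (1.48), and those that fell included MADE2 copies on chromosomes X (-2.49) and 2 (-2.34), MARNA in an exon of HEG1 (-2.22) and of CAV2 (-1.58), and HSMAR2 on chromosome 11 (-1.41).

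**Figure D4:**
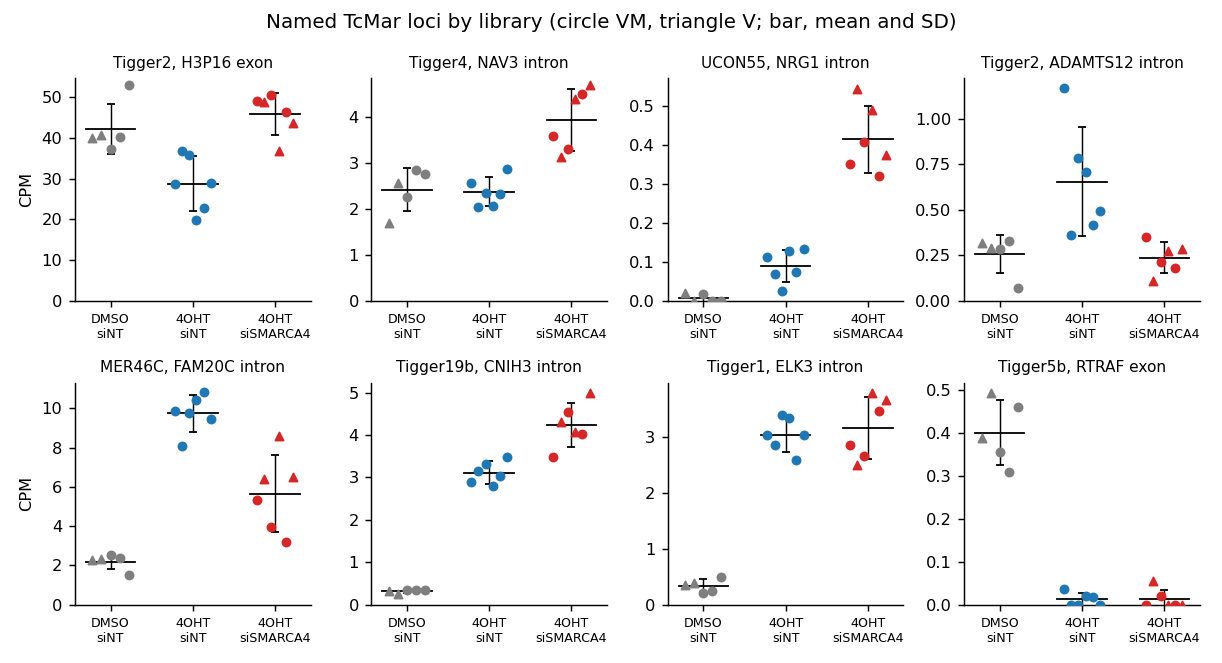
Level in CPM (y axis) of 8 single TcMar loci in each library by group (x axis), with the group mean and SD, circles for VM and triangles for V libraries. The Tigger4 locus in NAV3 is higher in each 4OHT siSMARCA4 library than in any 4OHT siNT library, and the MER46C locus in FAM20C and the Tigger19b locus in CNIH3 are higher in each 4OHT siNT library than in any DMSO siNT library.

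Set beside their host genes, the 13 loci that rose with the knockdown comprised 5 whose host was also called higher, 1 whose host was called lower (ZNF862, -0.45), 6 whose host was not called and 1 outside genes. Of the 7 that fell, 5 had a host called lower. Of all genes, 10.4% were called higher and 13.8% lower with the knockdown. The median difference between locus and host was 1.01 on the log2 scale for loci that rose and -0.63 for loci that fell. With 4OHT, 41 of the 58 loci that rose had a host called higher, against 12 of the 44 that fell with a host called lower, and 13 of those 44 lay outside genes. Of all genes, 27.0% were called higher and 27.4% lower with 4OHT. Over tested loci the log2 changes of locus and host correlated with r = 0.374 in introns (240 loci in 200 hosts) and 0.60 in exons (130 loci in 120 hosts) for the knockdown, and 0.622 and 0.673 for 4OHT. These are descriptions across loci that share libraries, hosts and, in exons, reads.

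**Figure D5:**
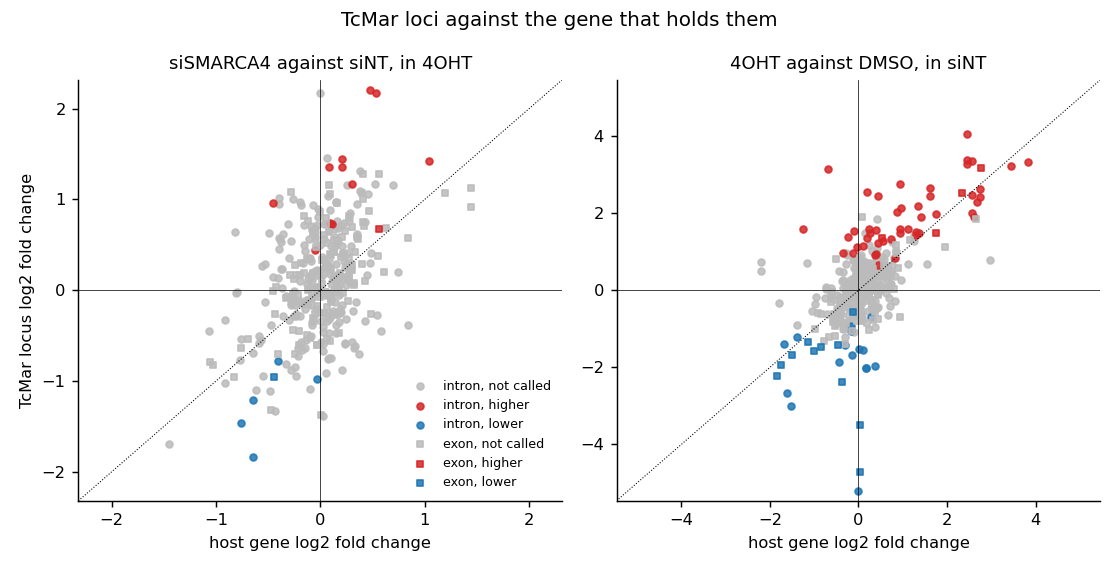
Log2 fold change of each tested TcMar locus in a gene (y axis) against that of its host gene (x axis) for both contrasts, with squares for exonic and circles for intronic loci and the identity as a dotted line. In the knockdown contrast the correlation of locus and host is 0.374 for intronic and 0.60 for exonic loci.

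Among the 424 tested loci, 24 were flanked by TA on both sides and 11 had a TIR. Of the 24, 1 rose and 1 fell with the knockdown, and 2 rose and 4 fell with 4OHT. Of the 400 not flanked by TA on both sides, 12 rose and 6 fell with the knockdown and 56 rose and 40 fell with 4OHT, and of all repeat loci 6.16% and 27.5% were called. Of the 11, the Tigger4 copy in NAV3 rose with the knockdown. The median log2 change of these 11 was 0.14 with the knockdown and -0.13 with 4OHT, in which edgeR called 0 of them.

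The host genes derived from TcMar transposases were followed as a list of 13, of which 12 entered the test (TIGD4 did not). With the knockdown 1 of them fell and 0 rose, beside a background of 24.2% of 19473 genes called, and the median log2 change was -0.11 against -0.02 over all genes. TIGD6, one of the tigger transposase-derived genes of little known function, was at 5.97, 6.45, 6.16, 7.59 and 6.91 CPM in DMSO siNT, at 6.89, 7.28 and 8.01 CPM in 4OHT siNT and at 5.22, 5.47 and 6.10 CPM in 4OHT siSMARCA4. The 4OHT groups did not overlap, and TIGD6 fell by 0.40 (SE 0.08, edgeR adjusted p = 0.00186). Without siSMARCA4 library 4-2V the count was 3 (26.5% of all genes called), with POGK and POGZ added, and POGK also passed in the VM libraries alone (adjusted p = 0.0291) and with V or VM as a covariate (0.035).

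With 4OHT 1 of the 12 rose and 4 fell, beside a background of 54.4% of genes. TIGD2 fell from 13.1, 13.7, 13.1, 13.8 and 12.9 CPM in DMSO siNT to 3.79, 5.62 and 6.44 CPM in 4OHT siNT (-1.33, edgeR adjusted p = 1.41e-07). JRK, named after the jerky gene of the mouse, fell from 15.09, 15.04, 14.34, 14.58 and 12.45 CPM to 7.11, 7.80 and 7.99 CPM (-0.90, adjusted p = 2.49e-08). SETMAR, a fusion of a histone methyltransferase with a mariner transposase, fell from 7.29, 6.15, 5.50, 6.25 and 7.23 CPM to 2.85, 4.08 and 5.32 CPM (-0.72, adjusted p = 0.000332). In all of these the groups were apart.

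TIGD1 fell from 4.96, 3.92, 3.14, 3.91 and 3.46 CPM to 2.02, 2.44 and 2.98 CPM (-0.66, edgeR adjusted p = 0.00359), and TIGD5 rose from 13.4, 13.7, 15.5, 12.3 and 15.7 CPM to 17.3, 19.3 and 20.3 CPM (0.43, adjusted p = 0.00128), both without overlap. CENPB, which binds the CENP-B box of centromeric alpha satellite, was at 114, 142, 135, 137 and 165 CPM in DMSO siNT, at 144, 156 and 179 CPM in 4OHT siNT and at 129, 146 and 171 CPM in 4OHT siSMARCA4. All 3 groups overlapped, and CENPB passed in neither contrast (-0.12 with the knockdown, 0.20 with 4OHT, edgeR adjusted p = 0.0759 for the latter), although without DMSO library 4-3VM the 4OHT change passed (adjusted p = 0.0156).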

How the data were processed

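The 17 libraries were stranded, poly(A)-selected, paired-end RNA-seq. The authors trimmed reads with Cutadapt 4.7, aligned them with HISAT2 2.2.1 to GRCh38 keeping many alignments per pair, and assigned pairs to genes (Ensembl) and single repeat loci (RepeatMasker, Dfam) with TElocal. The deposited values are estimated counts, because TElocal shares multi-mapping pairs among loci by maximum likelihood and writes whole numbers, so old, diverged copies are placed more surely than young or duplicated ones. They were not normalized.

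TcMar loci were taken by class name and summed by subfamily. Place and host gene came from GENCODE 44, a later annotation than the one used for counting. The superfamily whose members are described, gene lists and tests were chosen with earlier results of these data known. Loci with 10 or more counts in all, subfamily sums and genes were each fitted over all 17 libraries with edgeR 4.0.16 (quasi-likelihood, filterByExpr with a minimum count of 10, TMM factors 0.949 to 1.08, scaled beside genes; R 4.3.3), with Benjamini-Hochberg adjustment over all 13026 loci, 1026 subfamilies or 19473 genes tested and a threshold of 0.05. The edgeR fit of the knockdown contrast was also run on simulated counts with known fold changes, and the outcome is not given here. Those counts were drawn independently for each library, without effects of V or VM, siRNA number or scattered reads, so the run does not bear on these. Log2 changes are on the scale of the fitted model and carry an SE. Single values per library were compared with exact 2-sided permutation tests (scipy 1.17.1). Ratios of low counts carry exact binomial 95% intervals, which cover counting error only.

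Named were, per contrast, the 6 called subfamilies with the largest rise and fall (non-overlapping groups first, or 3 by p where fewer than 3 were called), the 6 subfamilies and 6 loci with most counts, the 6 called non-overlapping loci with the largest rise and fall, host genes of named loci, 13 transposase-derived genes and SMARCA4. Exceptions are marked in the text. Alternatives tried were DESeq2 1.42.0, its size factors, TMM from repeats, no filter, fits on the groups compared only, V or VM as covariate, VM libraries only, each siRNA number alone, scattered counts as covariate, a replicate block, leaving out exonic or top loci, other denominators, protein-coding genes only, and leaving out each library. At these depths 20.2% of TcMar loci had a count, and a locus without one is not shown to be silent. Some element sequences are not reported here.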

Additional observations from a re-analysis of the deposited data

Results flagged for a closer look

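In 22 of 161 groups tested, a single library stood far from the rest of its group (Dixon's criterion, which chance meets in about 5% of groups). DMSO siNT library 2-2V was the highest of its group for Kanga1a (1.27 CPM), MER2 (22.8), Tigger1 (71.1), Tigger18a (4.42), Tigger4 (7.02) and the sum of intronic TcMar loci (375 CPM). DMSO siNT library 4-3VM was the highest for the Tigger2 locus in H3P16 (53.0 CPM) and the Tigger14a locus in SDAD1 (0.583), and the lowest for the Kanga11a locus on chromosome 1 (0.389), the MER46C locus in FAM20C (1.5) and the Tigger2 locus in ADAMTS12 (0.0707). DMSO siNT library 2-1V was the highest for the short Tigger19b fragment in CNIH3 (0.0925 CPM).

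In 4OHT siSMARCA4, 1 library was apart for exonic TcMar loci (highest, 214 CPM, library 4-3V), Tc1 elements (highest, 5.63), Tigger6a (lowest, 1.56), Tigger9b (highest, 1.93), the MamRep434 locus in PAPPA (highest, 0.881), the Tigger3 locus in CENPA (highest, 0.763) and the Tigger5b locus in RTRAF (highest, 0.0545). In 4OHT siNT this held for Tigger9b (lowest, 0.599 CPM), the X12_DNA locus in ARID5B (lowest, 0.145) and the HSMAR1 locus on chromosome 4 (highest, 0.0253, a single count).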

How the results depend on the processing

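A count of called members was taken to stay when it was near that of the main fit, and to move otherwise. Any other value was taken to stay when it kept its direction and side of the threshold. Of the values that answer a comparison, 55 stayed under the alternatives other than leaving out a library, beside 19 that moved, 10 that reversed and 6 that no longer passed. Those 6 include tests within 1 siRNA number, which could not pass. When a library was left out 119 did so, beside 8 and 11 that moved or reversed. Of the values for single subfamilies, loci and genes, 746 and 1063 did so, 291 and 136 no longer passed, 8 and 4 newly passed, and 20 and 15 reversed. The cause of the changes below was not tested. Called TcMar subfamilies under the knockdown numbered 21 (20.4% of all subfamilies called), and 2 with TMM from repeats (2.73%), 4 with V or VM as covariate (5.75%), 9 in VM libraries (9.55%), 2 with siRNA number 2 (1.17%), 0 with number 4 (0.39%; 29 TcMar at an unadjusted p under 0.05), 0 with scattered counts as covariate (0.195%; 27 unadjusted), and 13 to 26 without a library (13 without siSMARCA4 library 4-3V). Called loci, 20 (6.16% of all loci called), became 2 with number 2 (0.353%), 0 with number 4 (0.0537%; 59 TcMar unadjusted) and 0 with scattered counts as covariate (0.115%; 64 unadjusted), and 10 to 24 without a library. Called transposase-derived genes, 1 (24.2% of all genes called), became 2 with V or VM as covariate (27.4%), 2 in VM libraries (27.1%) and 1 to 3 without a library (3 without siSMARCA4 library 4-2V, 26.5%). With 4OHT, 7 called subfamilies (16.9% of all) became 12 without exonic loci (19% of all) and 2 others without top loci (7.42%), and 102 called loci of 424 (27.5% of all loci called) became 206 of 5500 without a filter (4.16%).

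For the knockdown, the difference in TcMar level was 50.8 CPM in VM libraries, 68.6 with number 2 and 136 with number 4, and that in the log2 ratio to hAT was 0.0828, 0.0391 and 0.19, none past the threshold. Within 1 siRNA number the exact permutation p cannot go below 0.1, so those tests could not pass and do not show a lost difference. The TcMar share of repeat counts turned to -0.0778 percentage points without exonic loci, -0.0798 in VM libraries and -0.149 with number 2, and ranged from -0.0489 to 0.162 without a library. With 4OHT, the level turned to 0.608 CPM without exonic loci, 14.3 in VM libraries and 45.3 with number 4 (-52.9 to 5.53 without a library), and the share to -0.0363 without exonic loci, -0.180 without top loci and -0.212 with number 2 (-0.164 to 0.112). The log2 ratio turned to -0.0348 with number 2 (-0.0423 to 0.0525 without a library), and the intronic level to -4.54 CPM by protein-coding genes only.

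Of named members, Tigger11a turned to 0.00349 (knockdown, without top loci), MER46C to 0.25 (knockdown, without top loci), Tigger17c to 0.15 without exonic loci, 0.16 without top loci and 0.0738 with number 2, TIGD7 to 0.0111 (knockdown, VM), and POGK to -0.0137 and POGZ to -0.0114 (4OHT, no filter). Among knockdown values that did not pass, Tigger1 turned to -0.0592 with TMM from repeats, Tigger3a to -0.0449 with TMM from repeats, -0.0207 with V or VM as covariate and -0.137 with number 4, and its DGKI locus to -0.0515 and -0.408 in the last pair of these fits. X12_DNA turned to 0.0439 without exonic loci, 0.0170 without top loci, 0.0724 with number 2 and 0.238 with scattered counts as covariate, and the TRNP1 locus of Tigger23a to 0.264 with that covariate. Without a library, X12_DNA ranged from -0.184 to 0.0225 and the DGKI locus from -0.0703 to 0.400, JRK ranged from -0.0271 to 0.0466, TIGD2 from -0.14 to 0.00403 and TIGD3 from -0.43 to 0.0583 (knockdown), and POGK from -0.0555 to 0.0365 and POGZ from -0.0739 to 0.0548 (4OHT).

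Libraries with the same number and letters in the labels did not deviate together in every pair (r of 0.053, 0.297 and -0.105 for the knockdown, -0.451, -0.309 and 0.209 for 4OHT), so the labels were not taken to pair them. With the replicate block, 1 subfamily, 1 locus and 0 derived genes (4 unadjusted) were called for the knockdown, beside 1.46% of all subfamilies, 0.0691% of all loci and 15.6% of all genes, and 2 subfamilies and 46 loci for 4OHT, beside 7.02% and 11.4%.

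Depth limits single loci: 424 of 175272 were tested, holding 48.6% of TcMar counts. Near-identical copies, reads shared with host transcripts, and the mix of V and VM libraries limit the rest.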
